A study of Homo sapiens with 15 samples.

Results

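The solute carrier transporter genes are the genes whose symbol is SLC, a family number, the letter A and a member number. Of the 12995 genes in the deposited values, 195 symbols had this form, and 193 members were left after SLC2A1 and SLC7A11 were set aside. Another 37 symbols that begin with SLC but have other forms, such as the SLC35B to SLC35G genes and the SLCO genes, were not members. The members were read in 15 RNA libraries, 5 groups of 3. OKF6 is a normal oral epithelial cell line of wild type genotype, grown in keratinocyte serum-free medium, and no label gives it a vector or doxycycline. SCC25 and SCC15 are oral squamous carcinoma lines that had been transduced with lentiviral vectors for Cas9 and a guide against YBX1, sorted for GFP and mCherry and expanded as pools. The SCC25 +YBX1 and SCC15 +YBX1 groups are those cells without induction of the guide, and their genotype is also labelled wild type. The sample titles of all SCC15 and SCC25 libraries, with or without doxycycline, nevertheless read YBX1KO. For the SCC15 -YBX1 and SCC25 -YBX1 groups these pools received doxycycline at 1 µg/ml for 3 days, which switches the guide on. YBX1 encodes a protein that binds RNA and DNA. SCC25 grew in the medium of OKF6 and SCC15 in DMEM with serum, so for SCC15 the line and its medium cannot be told apart. The +YBX1 libraries serve both as cancer lines and as the controls of the knockdown. Below, SCC15 and SCC25 stand for their +YBX1 libraries unless -YBX1 is named.

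Solute carriers are membrane proteins that move amino acids, sugars, carboxylates, ions, metals, vitamins and nucleosides down a gradient or by coupling them to sodium, protons or another solute. Cancer cells are known for a high demand for glucose and glutamine and for the export of lactate, which passes through the proton-coupled monocarboxylate carriers. The heavy chain SLC3A2 pairs with light chains such as SLC7A5 (LAT1) and SLC7A8 (LAT2), which exchange large neutral amino acids across the plasma membrane.

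The promoters of 4 members that marked the cell lines are shown, since SLC7A5 and SLC3A2 encode partners of 1 exchanger, SLC16A3 was almost absent from SCC15 and SLC16A10 was read in SCC15 but not in the other lines. The windows are RefSeq promoters on GRCh38.p14, running from 250 bases before to 50 bases after a transcript start, written 5′ to 3′ on the gene's strand. Capitals mark matches, on either strand, to CCAAT (the box that Y-box proteins were named for), ACGTG (the core of hypoxia response elements), CACGTG (the E-box of MYC, which holds ACGTG) or TGATGNAA (the composite element bound by ATF4). For SLC3A2 (3 windows) and SLC16A3 (5 windows), the window with the rarest of these motifs is printed. 
SLC7A5 (chr16:87869458-87869757, minus strand): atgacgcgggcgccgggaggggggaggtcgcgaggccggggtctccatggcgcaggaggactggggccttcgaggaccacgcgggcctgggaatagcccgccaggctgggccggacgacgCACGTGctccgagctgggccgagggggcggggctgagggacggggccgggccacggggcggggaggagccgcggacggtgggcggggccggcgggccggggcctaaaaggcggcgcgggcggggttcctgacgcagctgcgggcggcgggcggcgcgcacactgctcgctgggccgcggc
SLC3A2 (chr11:62881449-62881748, plus strand): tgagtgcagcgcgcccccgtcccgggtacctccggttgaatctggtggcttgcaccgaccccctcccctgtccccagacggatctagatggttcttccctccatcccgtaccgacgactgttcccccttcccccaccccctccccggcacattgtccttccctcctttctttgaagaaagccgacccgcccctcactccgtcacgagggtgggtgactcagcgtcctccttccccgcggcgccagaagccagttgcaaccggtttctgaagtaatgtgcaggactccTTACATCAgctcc
SLC16A3 (chr17:82228792-82229091, plus strand): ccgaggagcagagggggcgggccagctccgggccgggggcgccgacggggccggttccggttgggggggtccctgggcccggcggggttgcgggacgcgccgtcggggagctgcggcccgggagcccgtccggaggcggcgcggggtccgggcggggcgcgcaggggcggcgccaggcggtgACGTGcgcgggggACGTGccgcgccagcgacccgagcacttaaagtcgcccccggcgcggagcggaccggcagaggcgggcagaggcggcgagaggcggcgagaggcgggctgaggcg
SLC16A10 (chr6:111087253-111087552, plus strand): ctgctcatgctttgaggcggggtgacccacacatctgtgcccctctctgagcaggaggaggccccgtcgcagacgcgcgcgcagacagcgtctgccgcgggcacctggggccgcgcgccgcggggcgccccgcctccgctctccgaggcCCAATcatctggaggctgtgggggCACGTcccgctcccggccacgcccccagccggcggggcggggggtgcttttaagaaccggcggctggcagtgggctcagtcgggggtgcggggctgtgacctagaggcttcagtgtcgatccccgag
The SLC7A5 window held CACGTG, the SLC3A2 window TGATGNAA, the SLC16A3 window ACGTG at 2 places, and the SLC16A10 window both CCAAT and ACGTG. A window was found for 153 of the 193 members, 235 windows in all. CCAAT stood in 36.2% of the members' windows and in 34.6% of all 35116 windows. ACGTG stood in 28.1% against 21.4%, CACGTG in 13.6% against 7.3%, and TGATGNAA in 5.1% against 3.6%. Among the 15053 windows of genes in the table, CCAAT stood in 34.5% (5197 windows), ACGTG in 3812 windows, CACGTG in 9.2% (1391) and TGATGNAA in 1.9% (293), against 85, 66, 32 and 12 of the members' 235. The gap thus depends on the windows compared with, being narrower for ACGTG and wider for TGATGNAA against the table's genes. These shares describe letters in the windows and were not tested.

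RNA was read by 3′ tag sequencing, which gives reads from the end of each transcript, so read counts were not divided by gene length. Levels are given as log2 CPM, where CPM is a gene's share of its library's reads. The libraries held 4075290 to 6118501 reads, and 1 read was worth 0.138 to 0.226 CPM. Members took 0.707% to 0.950% of the reads. OKF6 library 1 stood furthest from its group, with an SD over genes of 0.58 on the log2 scale from its group mean, against 0.46 and 0.37 in the other OKF6 libraries and 0.18 to 0.32 in the cancer lines. YBX1, the target of the guide, was at 5.11, 5.56 and 6.00 in SCC15 and at 3.36, 3.71 and 3.13 in SCC15 -YBX1. In SCC25 it was at 6.74, 6.31 and 6.62, and in SCC25 -YBX1 at 5.26, 4.70 and 3.65. It was thus lower in every -YBX1 library than in every +YBX1 library of its line, by 2.15 ± 0.35 (SE) in SCC15 and 2.01 ± 0.35 in SCC25 on the log2 scale, but neither difference passed over all genes (adjusted p = 0.326 and 0.290). Without induction YBX1 was lower by 2.21 ± 0.39 in SCC15 than in OKF6 (adjusted p = 0.000707) and by 1.21 ± 0.39 in SCC25 (adjusted p = 0.0375). All 10 squamous epithelial markers looked for (KRT5, KRT14, KRT17, KRT6A, TP63, CDH1, EPCAM, DSP, PKP1 and DSG3) were read in OKF6 and SCC25, where they summed to between 9760 and 35500 CPM per library. In SCC15 they summed to only 91.7 to 124 CPM, most of it from DSP (6.79, 6.44 and 6.35 log2 CPM). DSP and KRT17 were the 2 markers above 1 CPM in every SCC15 library, and both lay below each OKF6 and SCC25 library. TP63 and DSG3 lay below 1 CPM in each SCC15 library, so the squamous label of SCC15 was not borne out by most of these markers. The 6 mesenchymal markers summed to 430 to 454 CPM in SCC15, 2410 to 3140 CPM in SCC25 and 759 to 1900 CPM in OKF6. These sums rest mainly on FN1 and VIM, and the single markers did not share their order. FN1 was lower in SCC15 (4.69, 4.10 and 3.58) than in each library of SCC25 and OKF6, whereas CDH2 was at 5.15, 5.77 and 5.58 in SCC15, at 3.38, 3.13 and 3.83 in SCC25 and at 0 reads in OKF6. ZEB1 (4.48, 3.78 and 4.45) and ZEB2 (1.67, 1.39 and 1.59) were likewise higher in each SCC15 library than in each library of the other lines, and SCC15 was the only line in which all 6 markers exceeded 1 CPM in every library. Of the fibroblast, leukocyte and endothelial markers only 5 were in the tables, and PTPRC, DCN and PECAM1 were not among the genes there. Every difference given here between SCC15 and another line moves with this low level of squamous markers, and the part of either in the other was not tested.

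The line comparison asks how transporter expression differs between the normal line and the cancer lines, and between the cancer lines. SCC15 differed from OKF6 in 99 of the 193 members, of which 53 were higher and 46 lower (adjusted p under 0.05, limma). Over all genes 26.9% were called higher and 23.4% lower in the same comparison, so the members' shares (27.5% and 23.8%) lay near the background. Against SCC25, SCC15 was higher in 40 members (20.7%, against 20.0% of all genes) and lower in 52 (26.9%, against 23.6% of all genes). SCC25 was higher than OKF6 in 44 members (22.8%, against 18.9% of all genes) and lower in 26 (13.5%, against 11.3% of all genes). The median member differed by 0.08 in SCC15 against OKF6, by 0.23 in SCC25 against OKF6 and by -0.11 in SCC15 against SCC25 on the log2 scale, and the median gene by 0.10, 0.13 and -0.01. With members at 0 reads in 1 line set at a floor of 3 reads the members' medians were the same. Giving all libraries 1 median moved the median gene from -0.01 to 0.14 in SCC15 against SCC25, where the members' median turned to 0.05, so the sign of the members' median there depended on the scaling. Quantile normalization likewise moved the median gene to 0.17 and the members' median to 0.12. The 3 line comparisons share libraries in pairs, so their results are not independent. Leaving out OKF6 library 1 raised the calls to 113 in SCC15 against OKF6, 88 in SCC25 against OKF6 and 112 in SCC15 against SCC25. The calls over all genes rose with them, from 6534 to 7434, from 3923 to 5331 and from 5672 to 6802 of 12995. Without SCC25 library 3 the members lower in SCC25 than in OKF6 dropped from 26 to 15, while the calls over all genes in that comparison, in both directions, dropped from 3923 to 2777.

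In 43 members (22.3%) every SCC15 library lay above the other 6 libraries, and in 45 (23.3%) every SCC15 library lay below them. Among all genes these patterns held for 20.0% and 19.2%. SCC25 stood above both other lines in 34 members (17.6%, against 12.0% of all genes) and below them in 12 (6.22%, against 7.20%). OKF6 stood above in 21 (10.9%, against 10.8%) and below in 26 (13.5%, against 13.4%). Sorted by what the carriers move, the class with the highest share of calls in SCC15 against OKF6 was the mono- and dicarboxylate carriers, 7 of 7, against 50.3% of all genes. The amino acid carriers, with 18 of 30, and the nucleoside and the organic ion carriers, with 6 of 10 each, came next and lay near that background. Of the carboxylate calls, that of SLC16A1 was lost without SCC15 library 1 or 2 or any SCC25 library. The call of SLC16A9 was lost without SCC15 library 3. The 41 mitochondrial carriers gave 16 higher (39.0%) and 4 lower (9.76%) in that comparison, with a median of 0.71. Over all genes 26.9% were higher and 23.4% lower there. The share of mitochondrial carriers called in either direction (48.8%) lay near the background. In SCC25 against OKF6 they gave only 5 higher (12.2%) and 1 lower (2.44%), against 18.9% and 11.3% of all genes. Their median there was 0.22. Amino acid carriers divided evenly in SCC25 against OKF6, with 9 higher and 8 lower of 30. These shares (30.0% and 26.7%) lay above those of all genes (18.9% and 11.3%). In SCC15 they leaned lower, with 7 higher (23.3%) and 11 lower (36.7%) against OKF6, where all genes gave 26.9% and 23.4%. Against SCC25, 5 were higher (16.7%) and 12 lower (40.0%), where all genes gave 20.0% and 23.6%.

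**Figure D1:**
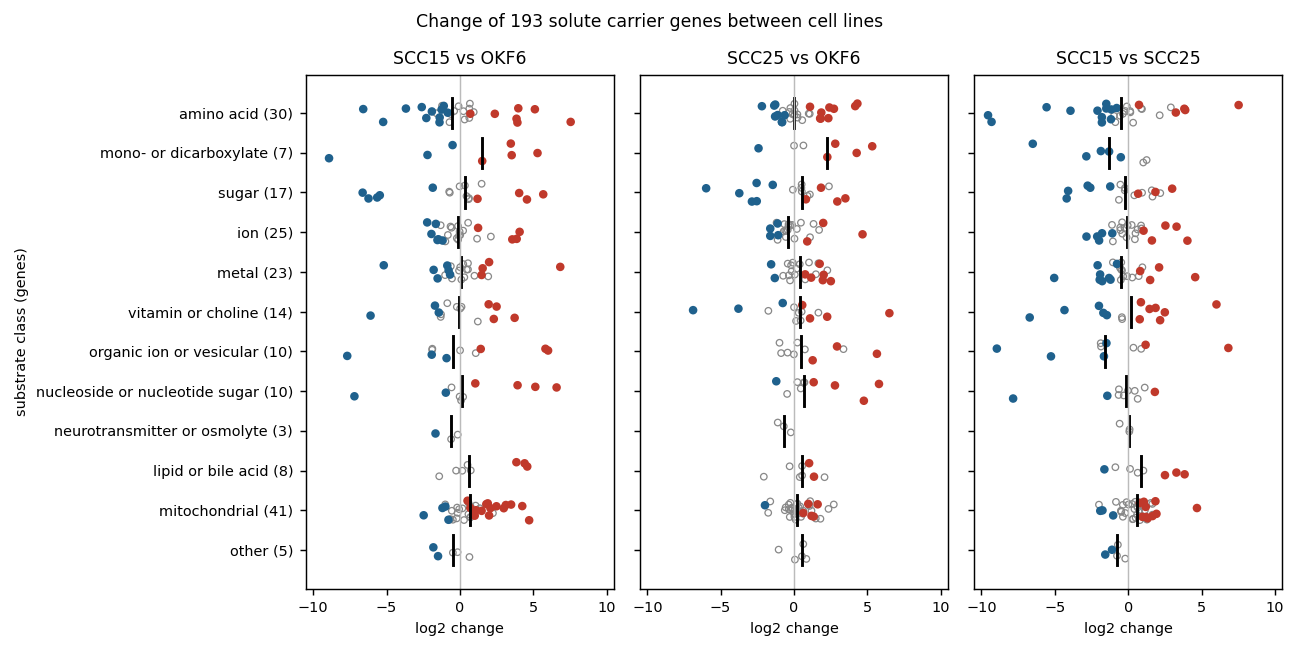
Log2 change of the 193 members in the 3 line comparisons (x axis), by substrate class (y axis, number of genes in brackets); filled points passed at an adjusted p under 0.05 (red higher, blue lower), open points did not, and the black bar is the class median. The mitochondrial median lies at 0.71 in SCC15 against OKF6, and amino acid, carboxylate and sugar carriers reach beyond 5 on the log2 scale in both directions in SCC15 against OKF6.

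Amino acid exchange across the plasma membrane differed most clearly through SLC7A5, SLC7A8 and their heavy chain. SLC7A5, which takes up leucine and other large neutral amino acids, read 8.99, 10.03 and 10.01 log2 CPM in OKF6, 7.58, 7.62 and 7.26 in SCC25 and 5.48, 6.32 and 6.2 in SCC15. No 2 lines overlapped, and OKF6 was highest and SCC15 lowest. On the log2 scale it was lower by 3.68 ± 0.31 (SE, adjusted p = 3.45e-06) in SCC15 and by 2.19 ± 0.31 (adjusted p = 0.000549) in SCC25 than in OKF6. The heavy chain SLC3A2 kept the same order, with 10.11, 9.25 and 9.46 in OKF6, 8.68, 9.02 and 8.68 in SCC25 and 7.0, 7.03 and 6.98 in SCC15. Its difference from OKF6 was -2.60 ± 0.23 in SCC15 (adjusted p = 4.52e-06) and -0.81 ± 0.23 in SCC25 (adjusted p = 0.0215). The SCC25 call was lost without SCC25 library 1 or 3, at -0.76 each. SLC7A8, an exchanger of small and large neutral amino acids, went another way, with 5.05, 4.83 and 4.93 in OKF6, 9.05, 9.37 and 8.92 in SCC25 and 3.78, 3.44 and 3.42 in SCC15. SCC25 thus exceeded OKF6 by 4.17 ± 0.20 on the log2 scale, 18.1-fold (adjusted p = 2.04e-06), and SCC15 by 5.56 ± 0.20, 47.3-fold (adjusted p = 3.37e-08). A gene model without a symbol lies over the 3′ end of SLC7A8 on the same strand, and the reads of that model and SLC7A8 cannot be told apart.

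Other members of the SLC7 family differed less. SLC7A1, the cationic amino acid carrier for arginine and lysine, was at 9.12, 7.73 and 7.83 in OKF6, 7.17, 6.87 and 6.5 in SCC15 and 6.89, 6.92 and 6.99 in SCC25. It was lower than OKF6 in both cancer lines, by 1.38 ± 0.33 (adjusted p = 0.00544) in SCC15 and 1.29 ± 0.33 (adjusted p = 0.0145) in SCC25, and without OKF6 library 1 it remained lower in both. SLC7A6, a light chain that exchanges arginine for neutral amino acids, was lowest in SCC25, at 4.07, 4.34 and 4.73 against 5.36, 5.22 and 5.04 in OKF6 and 5.04, 5.14 and 5.18 in SCC15. The difference of SCC25 from OKF6 was -0.83 ± 0.23 (adjusted p = 0.0214), and it no longer passed without SCC25 library 1 or 2 (-0.81 to -0.67). SLC43A1, a sodium-independent carrier of large neutral amino acids, had 51, 21 and 26 reads in SCC15, 3 in each SCC25 library and 0, 19 and 0 in OKF6, where the spread between libraries exceeded most differences between lines. Its call against OKF6 (log2 change 3.98 ± 1.26, adjusted p = 0.0223) was lost without OKF6 library 1 or 3 or SCC15 library 1, at 3.00 to 3.55.

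SLC16A10, a carrier of aromatic amino acids that belongs to the monocarboxylate family by sequence, was read in SCC15 and not in the other lines. SCC15 held 75, 135 and 124 reads, and all libraries of OKF6 and SCC25 held 0. Against a floor of 3 reads per library this was at least 27.4-fold higher than OKF6 (adjusted p = 4.32e-07) and at least 29.7-fold higher than SCC25 (adjusted p = 5.94e-07). The knockdown libraries kept the pattern, with 78, 115 and 107 reads in SCC15 -YBX1 and 1, 0 and 1 in SCC25 -YBX1. SLC15A3, a lysosomal carrier of histidine and peptides, showed the reverse. It had 443, 582 and 375 reads in SCC25, 56, 21 and 10 in OKF6 and 1, 0 and 0 in SCC15. SCC25 lay above OKF6 by 4.32 ± 0.71 on the log2 scale (adjusted p = 0.00132), and the ratio of SCC25 to SCC15 was 1650, with a 95% counting interval of 296 to 65200 from the single SCC15 read. TMEM132A overlaps the 3′ end of SLC15A3 on the other strand. Its relative SLC15A4, also lysosomal, was at 4.39 to 5.04 log2 CPM in SCC15, below OKF6 by 1.1 ± 0.24 (adjusted p = 0.00264).

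Sodium-coupled uptake of small neutral amino acids differed member by member. SLC38A5, a carrier of glutamine, serine and glycine, was at 7.94, 7.62 and 7.61 log2 CPM in SCC25 and at 5.13, 4.35 and 5.55 in OKF6, but had only 1, 1 and 3 reads in SCC15. SCC15 was lower by 9.31 ± 0.41 than SCC25 (adjusted p = 9.06e-08) and by 6.59 ± 0.41 than OKF6 (adjusted p = 4.51e-07), and SCC25 was higher than OKF6 by 2.72 ± 0.41 (adjusted p = 0.000735), all on the log2 scale. SLC38A2, which is induced when amino acids are scarce, read 8.36, 8.43 and 9.01 in OKF6, 8.93, 8.98 and 8.62 in SCC25 and 7.54, 7.26 and 7.25 in SCC15. OKF6 and SCC25 overlapped (difference 0.24 ± 0.22, adjusted p = 0.424), and SCC15 was lower than OKF6 by 1.25 ± 0.22 (adjusted p = 0.000632). SLC38A1, the other widespread glutamine carrier of the family, was at 6.75, 8.15 and 7.71 in OKF6, 6.43, 6.42 and 6.42 in SCC25 and 5.2, 5.23 and 5.33 in SCC15. Its call in SCC15 against OKF6 (-2.29 ± 0.30, adjusted p = 8.1e-05) held without any single library, whereas that in SCC25 (-1.12 ± 0.30, adjusted p = 0.0164) was lost without OKF6 library 3 or any SCC25 library, at -1.12 to -1.03. SLC1A4, a carrier of alanine, serine and cysteine, was higher in SCC25 (6.28, 5.95 and 5.36) than in OKF6 (3.41, 3.16 and 3.78) by 2.41 ± 0.30 (adjusted p = 0.000236) and did not differ detectably between SCC15 and OKF6 (0.32 ± 0.30, adjusted p = 0.405).

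SLC1A5 (ASCT2), a glutamine carrier often raised in tumours, had 142, 624 and 727 reads in OKF6, 366, 609 and 735 in SCC15 and 413, 351 and 344 in SCC25. OKF6 library 1 was at 4.77 log2 CPM against 7.14 and 6.94 in the other OKF6 libraries, so the OKF6 values spanned both cancer lines. No line comparison passed for it (differences of 0.24 ± 0.51, -0.10 ± 0.51 and 0.34 ± 0.51, adjusted p of 0.627 or more). SLC38A10, a member that is found within the cell, was slightly higher in SCC15 (7.27, 7.14 and 7.07) than in OKF6 (6.90, 6.25 and 6.18), by 0.71 ± 0.22 (adjusted p = 0.0196). That call was lost without OKF6 library 2 or 3 or SCC15 library 1 or 2, at 0.58 to 0.72.

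**Figure D2:**
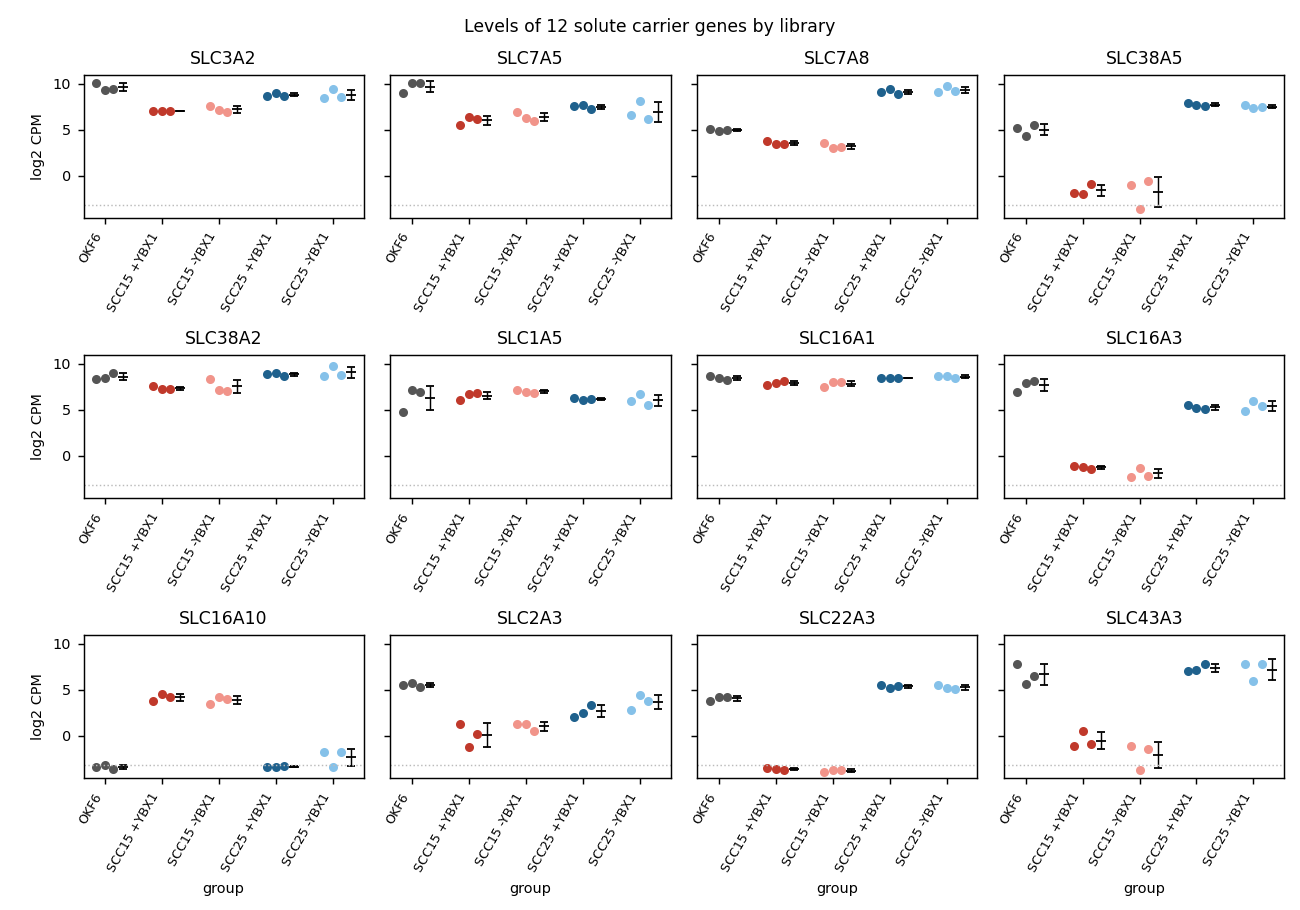
Levels (y axis, log2 CPM) of 12 members in the 5 groups (x axis); each point is 1 library, the bar beside each group is the mean with its SD (n = 3), and the dotted line is the highest value that a library gives to a gene with 0 reads. SLC16A10 lies far above the line in the SCC15 groups and at 0 or 1 reads elsewhere, SLC22A3 is on or below it in those groups, and SLC7A8 lies near 9 in the SCC25 groups and below 5.1 in all other libraries.

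Lactate and other monocarboxylates leave and enter cells through SLC16A1 (MCT1) and SLC16A3 (MCT4). SLC16A3, the low-affinity lactate exporter of glycolytic cells, had 658, 1034 and 1694 reads in OKF6, 241, 184 and 160 in SCC25 and 2 in each SCC15 library. In log2 CPM this was 6.98, 7.87 and 8.16 in OKF6, 5.5, 5.18 and 5.06 in SCC25, and -1.14, -1.25 and -1.38 in SCC15. Relative to OKF6 it was lower by 8.92 ± 0.34 in SCC15 (adjusted p = 4.64e-08) and by 2.42 ± 0.34 in SCC25 (adjusted p = 0.000545), and the alternatives tried kept the SCC15 value between -9.48 and -8.24. SCC15 -YBX1 held 1, 2 and 1 reads of it. SLC16A1, the widespread carrier of lactate and pyruvate, was high in all lines, with 8.63, 8.41 and 8.24 in OKF6, 8.41, 8.43 and 8.45 in SCC25 and 7.72, 7.95 and 8.10 in SCC15. Its difference was small, -0.50 ± 0.18 in SCC15 against OKF6 (adjusted p = 0.0352), which did not pass without SCC15 library 1 or 2 or any SCC25 library (-0.52 to -0.40), nor under 7 of the 11 other settings. BSG (basigin), the chaperone that carries both proteins to the plasma membrane, was lower than OKF6 in SCC15 by 1.40 ± 0.18 (adjusted p = 7.53e-05) and in SCC25 by 1.22 ± 0.18 (adjusted p = 0.000688). EMB (embigin), another such chaperone, was lower by 2.08 ± 0.43 (adjusted p = 0.00224) and 1.35 ± 0.43 (adjusted p = 0.0376).

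Other members of the family kept other orders. SLC16A9, a carrier linked to carnitine efflux, was at 1.37, 2.58 and 1.56 in OKF6, 3.2, 3.09 and 3.77 in SCC15 and 4.24, 4.81 and 4.90 in SCC25. It was higher than OKF6 by 2.81 ± 0.41 in SCC25 (adjusted p = 0.000686) and by 1.52 ± 0.41 in SCC15 (adjusted p = 0.0106), the latter lost without SCC15 library 3 (1.31). SLC16A5 (MCT6) was at 3.27, 3.67 and 3.53 in SCC25 and 1.5, -0.40 and 0.82 in SCC15, a difference of -2.85 ± 0.51 (adjusted p = 0.00105).

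Among the sugar carriers, 17 members, 4 were higher and 5 lower in SCC15 than in OKF6, and 4 higher and 6 lower in SCC25. The share called in SCC15 (52.9%) lay near that of all genes (50.3%). In SCC25 it was 58.8%, against 30.2% of all genes, and 35.3% were lower, against 11.3%. SLC2A3 (GLUT3), a glucose carrier of high affinity, was at 5.57, 5.77 and 5.29 in OKF6, 2.08, 2.54 and 3.39 in SCC25 and 1.3, -1.25 and 0.21 in SCC15. No 2 lines overlapped, and SLC2A3 was lower than OKF6 by 5.46 ± 0.61 in SCC15 (adjusted p = 2.84e-05) and by 2.87 ± 0.61 in SCC25 (adjusted p = 0.00569). SLC5A1 (SGLT1), which takes up glucose with sodium, was named after its values were seen. It had 36, 15 and 60 reads in OKF6 and 0 in every library of SCC15 and SCC25, at least 12.4-fold and 10.9-fold lower (adjusted p = 2.85e-06 and 2.12e-05). SLC37A2, a sugar phosphate exchanger of the endoplasmic reticulum, was lower in SCC15 (0.94, 0.34 and 0.94) than in OKF6 (6.8, 6.18 and 6.18) by 5.64 ± 0.31 (adjusted p = 2.97e-07), and 22.1% of its 3′ pieces are found elsewhere in the genome. SLC2A6 (GLUT6), a lysosomal member, was lowest in SCC15, by 1.85 ± 0.41 against OKF6 (adjusted p = 0.0032) and 2.76 ± 0.41 against SCC25 (adjusted p = 0.000274). SLC2A8 (GLUT8), found in inner membranes, was higher in SCC25 than in OKF6 by 0.81 ± 0.24 (adjusted p = 0.0282), a call lost without OKF6 library 3 or any SCC25 library (0.73 to 0.90). SLC2A12 (GLUT12) was read sparsely, with 9, 28 and 12 reads in OKF6, 14, 7 and 10 in SCC15 and 0, 5 and 0 in SCC25. Its lower value in SCC25 than in OKF6 (-3.73 ± 0.92, adjusted p = 0.0118) rested on these few reads and was lost without SCC25 library 1 or 3 (-3.19 to -3.12).

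Of the 10 nucleoside and nucleotide sugar carriers, 4 were higher than OKF6 in SCC15 and 4 in SCC25, where 26.9% and 18.9% of all genes were. In both lines these were the 4 equilibrative nucleoside carriers of the SLC29 family, a grouping chosen after the values were seen. SLC29A1 (ENT1), the main plasma membrane carrier of nucleosides and nucleoside drugs, was at 6.5, 6.44 and 6.25 in OKF6, 7.77, 7.33 and 7.23 in SCC15 and 7.80, 7.73 and 7.69 in SCC25. Against OKF6 this was 1.05 ± 0.18 in SCC15 (adjusted p = 0.000716) and 1.34 ± 0.18 in SCC25 (adjusted p = 0.000433) on the log2 scale. SLC29A2 (ENT2) had 2, 10 and 18 reads in OKF6, 140, 98 and 190 in SCC15 and 48, 94 and 33 in SCC25, and was higher by 3.93 ± 0.68 in SCC15 (adjusted p = 0.000658) and 2.79 ± 0.68 in SCC25 (adjusted p = 0.0109), the latter not without SCC25 library 2 (2.39). SLC29A3 (ENT3), of lysosomes, and SLC29A4, a carrier of monoamines, were named after their values were seen. Each had 0 reads in every OKF6 library. SLC29A3 had 17, 27 and 17 reads in SCC15 and 44, 25 and 17 in SCC25, at least 5.06-fold and 8.24-fold higher than OKF6. SLC29A4 had 57, 53 and 55 reads in SCC15 and 15, 14 and 10 in SCC25, at least 13.7-fold and 3.77-fold higher. Both comparisons use the same OKF6 libraries. SLC43A3, a purine nucleobase carrier, behaved differently, with 1207, 221 and 559 reads in OKF6, 711, 705 and 1105 in SCC25 and only 2, 8 and 3 in SCC15. SCC15 was lower by 7.19 ± 0.57 than OKF6 (adjusted p = 2.19e-06) and by 7.84 ± 0.57 than SCC25 (adjusted p = 1.62e-06), whereas OKF6 and SCC25 overlapped.

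Carriers of organic cations and drugs held some of the widest gaps. SLC22A3 (OCT3), which takes up monoamines and cationic drugs, had 72, 85 and 112 reads in OKF6, 246, 189 and 199 in SCC25 and 0 in all 6 SCC15 libraries, knockdown included. SCC15 was at least 31.6-fold lower than OKF6 (adjusted p = 1.98e-07) and at least 76.2-fold lower than SCC25 (adjusted p = 9.32e-08). The smaller difference of SCC25 from OKF6 (1.27 ± 0.40, adjusted p = 0.0341) was lost without OKF6 library 1 or any SCC25 library, at 1.12 to 1.35, and with the replicate number as a block. SLC22A17, a receptor-like member that binds lipocalin 2, had 3, 0 and 1 reads in OKF6, 103, 87 and 119 in SCC15 and 74, 81 and 51 in SCC25. It was higher than OKF6 in both, by 6.01 ± 0.61 (adjusted p = 1.28e-05) and 5.65 ± 0.61 (adjusted p = 8.6e-05). SLC47A1 (MATE1), a proton-coupled exporter of cations, had 193, 114 and 120 reads in SCC15, 4, 0 and 0 in SCC25 and 37, 0 and 0 in OKF6, so OKF6 library 1 differed from its group. SCC15 exceeded SCC25 by 6.83 ± 1.5 (adjusted p = 0.00373) and OKF6 by 5.83 ± 1.5 (adjusted p = 0.00756) on the log2 scale. SLC22A18, an imprinted gene for a putative cation carrier, was higher in SCC25 (4.55, 5.02 and 4.28) than in OKF6 (2.68, 2.78 and -0.40), by 2.93 ± 0.73 (adjusted p = 0.0124), and not without SCC25 library 2 (2.73).

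Carriers of bicarbonate, chloride and phosphate help to set cell pH and volume. SLC4A7, a sodium bicarbonate importer, was lower than OKF6 in both cancer lines, by 1.53 ± 0.19 (adjusted p = 6.48e-05) and 1.12 ± 0.19 (adjusted p = 0.00168). SLC4A2, the chloride bicarbonate exchanger AE2, was lower in SCC25 than in OKF6 by 1.62 ± 0.40 (adjusted p = 0.0121).

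SLC12A7 (KCC4), a potassium chloride exporter, was at 5.23, 4.87 and 4.68 in SCC15 and 5.88, 5.96 and 6.24 in SCC25 but at 0.08, 2.92 and 1.08 in OKF6. It was higher than OKF6 by 3.57 ± 0.58 (adjusted p = 0.000388) and 4.67 ± 0.58 (adjusted p = 0.000212). The importer SLC12A2 (NKCC1) stayed between 5.02 and 5.84 in all 9 libraries of the lines and passed in no comparison. SLC20A1, a sodium phosphate carrier, was lowest in SCC25 (5.87, 5.79 and 6.22), below OKF6 (7.39, 7.36 and 8.0) by 1.62 ± 0.22 (adjusted p = 0.000425). The sulfate carrier SLC26A2 passed in no line comparison (differences from OKF6 of -0.64 ± 0.27 and -0.61 ± 0.27, adjusted p = 0.0723 and 0.114). SLC26A11, another sulfate carrier, was higher in SCC15 (4.47, 4.59 and 3.94) than in SCC25 (3.10, 2.81 and 2.23) by 1.62 ± 0.42 (adjusted p = 0.00973).

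Zinc, copper, iron and magnesium carriers made up 23 members. In SCC15, 4 were higher than in OKF6 (17.4%, against 26.9% of all genes) and 6 lower (26.1%, against 23.4%). In SCC25, 6 were higher (26.1%, against 18.9% of all genes) and 2 lower (8.70%, against 11.3%). SLC39A4 (ZIP4), a zinc importer, was tightly measured at 5.43, 5.36 and 5.54 in OKF6, 5.33, 5.61 and 5.46 in SCC15 and 7.37, 7.44 and 7.41 in SCC25. SCC25 exceeded OKF6 by 1.96 ± 0.17 (adjusted p = 2.11e-05), whereas SCC15 overlapped with OKF6 (0.02 ± 0.17). A gene model without a symbol overlaps the 3′ end of SLC39A4 on the other strand. A second zinc importer, SLC39A1 (ZIP1), was also highest in SCC25 (8.14, 8.25 and 8.24), above OKF6 by 1.75 ± 0.29 (adjusted p = 0.00145), and a gene model without a symbol overlaps its 3′ end on the same strand. SLC39A14 (ZIP14), which imports zinc and iron not bound to transferrin, was at 7.0, 7.08 and 6.85 in OKF6, and lower by 1.79 ± 0.21 in SCC15 (adjusted p = 3.58e-05) and by 1.31 ± 0.21 in SCC25 (adjusted p = 0.00107). The importer SLC39A6 (ZIP6) was lower in SCC15 than in OKF6 by 0.77 ± 0.20 (adjusted p = 0.00869). SLC39A10 (ZIP10) was higher there by 1.55 ± 0.53 (adjusted p = 0.0316), a call lost without OKF6 library 2 or 3 or SCC15 library 1 (1.06 to 1.57).

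SLC31A2 (CTR2), a member linked to intracellular copper, had 2, 5 and 10 reads in SCC15 against 222, 114 and 180 in OKF6 and 154, 142 and 142 in SCC25, lower than OKF6 by 5.19 ± 0.46 (adjusted p = 4.7e-06). SLC30A9, a zinc carrier of mitochondria, was lowest in SCC25 (3.13, 3.62 and 3.21), below OKF6 by 1.56 ± 0.27 (adjusted p = 0.00194) and SCC15 by 2.11 ± 0.27 (adjusted p = 0.000108). SLC30A1, the zinc exporter of the plasma membrane, was lower in SCC15 than in SCC25 by 1.77 ± 0.51 (adjusted p = 0.0161), but not without SCC15 library 1 or SCC25 library 1 or 2 (-1.72 to -1.49). The iron importer SLC11A2 (DMT1) lay between 5.61 and 6.28 in all libraries of the lines and passed in none. SLC41A3, a magnesium carrier, was higher than OKF6 in SCC25 by 2.51 ± 0.49 (adjusted p = 0.00346) and in SCC15 by 1.48 ± 0.49 (adjusted p = 0.0274), the latter lost without SCC15 library 1 or 2 (1.15 to 1.59).

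SLC19A1, the reduced folate carrier that also takes up methotrexate, was at 5.55, 6.47 and 6.31 in SCC15, 3.62, 4.50 and 4.60 in SCC25 and 3.27, 4.11 and 3.99 in OKF6. SCC15 was higher than OKF6 by 2.31 ± 0.36 (adjusted p = 0.000325) and than SCC25 by 1.87 ± 0.36 (adjusted p = 0.00179). COL18A1 overlaps its 3′ end on the other strand. SLC46A3, a lysosomal carrier, had 90, 53 and 134 reads in OKF6 and 43, 62 and 61 in SCC15, but 0, 1 and 0 in SCC25. The ratio of OKF6 to SCC25 was 270 (95% counting interval 48.1 to 10700) and that of SCC15 to SCC25 was 141 (24.9 to 5600), both passing (adjusted p = 1.38e-05 and 7.93e-06). No read of it was found in the SCC25 -YBX1 libraries. SLC52A1, a riboflavin carrier named after its values were seen, was read in SCC25 alone of the lines, with 65, 45 and 29 reads against 0 in each library of OKF6 and SCC15, at least 13.4-fold and 16.5-fold higher. In the 14 vitamin and choline carriers 12 passed between SCC15 and SCC25, 7 higher and 5 lower in SCC15, where 43.6% of all genes passed. Against OKF6, 7 of the 14 passed in each cancer line, 4 higher and 3 lower. Of all genes, 50.3% passed in SCC15 and 30.2% in SCC25.

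**Figure D3:**
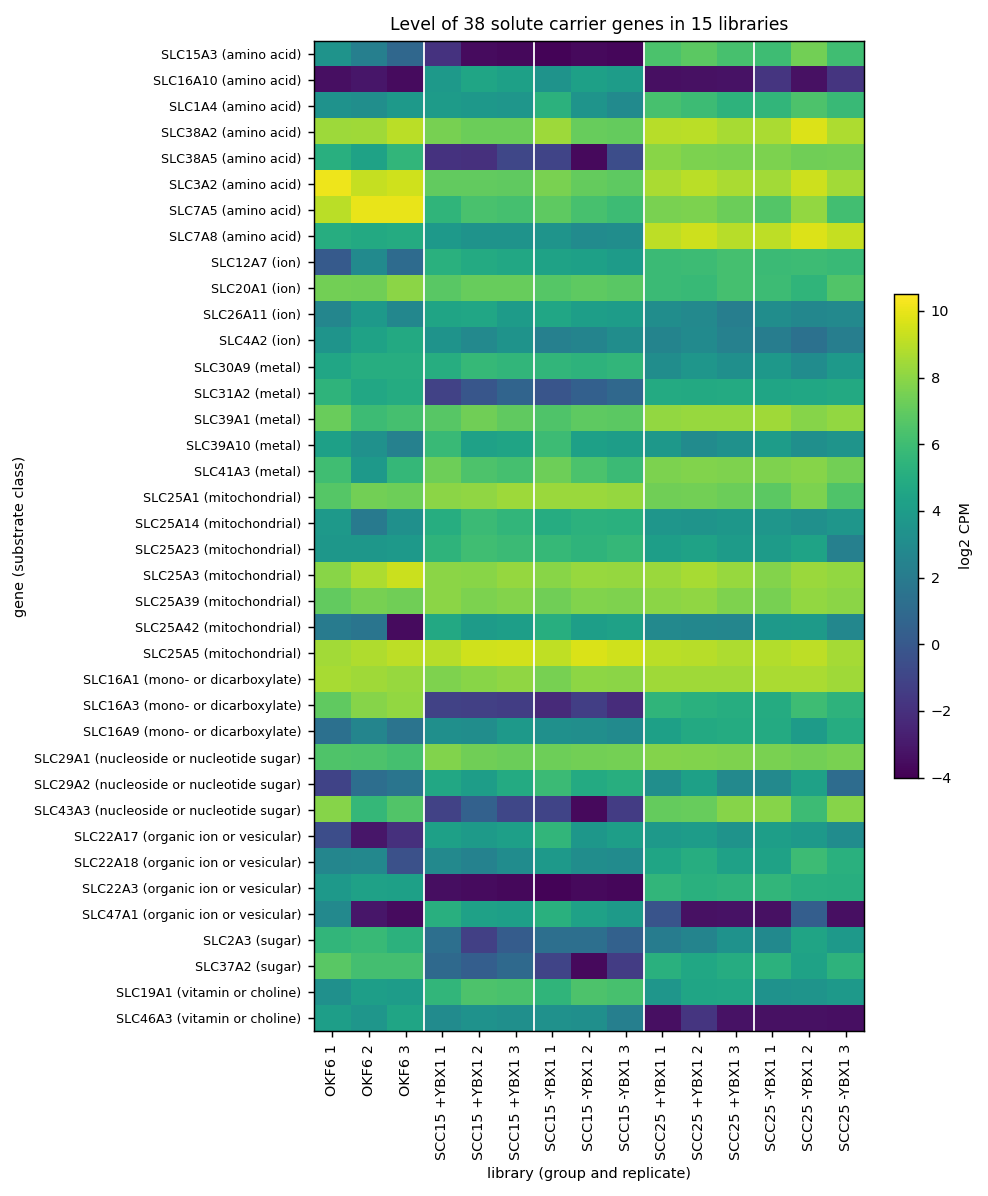
Levels (colour, log2 CPM) of the 38 members named from the line comparisons or for their level (rows, substrate class in brackets) in all 15 libraries (columns, white lines between groups). SLC16A3, SLC38A5, SLC22A3 and SLC43A3 are dark in the 6 SCC15 libraries, and SLC46A3 is dark in the 6 SCC25 libraries.

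The mitochondrial carriers of the SLC25 family held 4 of the 10 members with the highest mean level. SLC25A5 (ANT2), which exchanges ADP for ATP, led with a mean of 9.04 log2 CPM over the 15 libraries and passed in no line comparison (0.54 ± 0.22 in SCC15 against OKF6, adjusted p = 0.065). SLC25A3, the phosphate carrier, had 7.94, 8.74 and 9.34 in OKF6 and did not pass either (-0.65 ± 0.30, adjusted p = 0.0953). SLC25A1, the citrate carrier that feeds fatty acid synthesis, was higher in SCC15 (7.98, 8.09 and 8.40) than in OKF6 (6.69, 7.44 and 7.32) by 1.01 ± 0.22 (adjusted p = 0.00298). SLC25A39, which brings glutathione into mitochondria, was higher than OKF6 by 0.52 ± 0.19 in SCC15 (adjusted p = 0.0439) and 0.63 ± 0.19 in SCC25 (adjusted p = 0.0316). Its SCC15 call was lost without any library but OKF6 library 2 (0.39 to 0.60), and its SCC25 call without OKF6 library 3, SCC15 library 3 or SCC25 library 1 or 2 (0.56 to 0.66). SLC25A14 (UCP5) was higher in SCC15 (5.04, 5.86 and 5.56) than in OKF6 (3.84, 1.90 and 3.25) by 2.49 ± 0.45 (adjusted p = 0.000881). SLC25A23, a calcium-regulated carrier of ATP, magnesium and phosphate, was higher there by 2.08 ± 0.25 (adjusted p = 4.27e-05), but 58.1% of its 3′ pieces are found elsewhere in the genome. SLC25A42, a coenzyme A carrier, had 146, 91 and 115 reads in SCC15 and 21, 13 and 0 in OKF6 (log2 change 4.25 ± 1.17, adjusted p = 0.0112).

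The iron importers of mitochondria were lower in SCC15 than in OKF6. SLC25A37 (mitoferrin 1) was at 4.64, 4.23 and 4.65 in SCC15 against 4.8, 6.33 and 5.98 in OKF6 (-1.19 ± 0.36, adjusted p = 0.0164), a call lost without OKF6 library 2 or 3 or SCC15 library 2 (-1.06 to -0.88). SLC25A28 (mitoferrin 2) was lower by 0.99 ± 0.26 (adjusted p = 0.00908). SLC25A17, a peroxisomal member, was higher in SCC15 than in OKF6 by 0.96 ± 0.22 (adjusted p = 0.00363). The aspartate glutamate carrier SLC25A13 passed in no comparison of the lines (0.17 ± 0.34 in SCC15 against OKF6). SLC25A6 (ANT3) had at most 18 reads in any library, and all of its 3′ pieces are found on both sex chromosomes, so its counts are uncertain. The fatty acid carrier SLC27A4 had 4, 67 and 106 reads in OKF6 and passed in no comparison of the lines (-1.41 ± 1.1 in SCC15). SLC6A14, SLC16A7 and SLC40A1 were looked for and were not among the genes in the deposited values.

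Other membrane transporters were counted for comparison. Of 25 ABC transporters, 8 were higher and 4 lower in SCC15 than in OKF6, and 8 higher and 3 lower in SCC25. Of 11 P-type ion ATPases, 2 were higher and 5 lower in SCC15 and none higher and 3 lower in SCC25. Of 14 MFSD genes 3 were higher and 5 lower in SCC15, against 1 higher and 2 lower in SCC25. Of 4 SLCO genes none was higher and 3 were lower in SCC15, whereas 2 were higher and 1 lower in SCC25. The 1 aquaporin in the deposited values was lower in SCC15 and did not pass in SCC25. Of all genes, 26.9% were higher and 23.4% lower in SCC15, and 18.9% higher and 11.3% lower in SCC25.

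The knockdown comparison asks whether loss of YBX1 changed the transporters within each line. In neither line did a member pass at an adjusted p under 0.05 (limma), nor with the replicate number as a block or with voom weights. Over all genes 0.00% passed in SCC25 and 0.00% in SCC15. At an unadjusted p under 0.05 there were 8 members in SCC25 (4.15%, against 3.09% of all genes) and 6 in SCC15 (3.11%, against 2.32% of all genes). The difference between the 2 knockdowns gave no member either (0.00% of all genes), with 4 members (2.07%) at an unadjusted p under 0.05 against 2.26% of all genes. Without SCC25 -YBX1 library 2 the unadjusted counts rose to 14 in SCC25 and 14 for the difference, and without SCC15 library 1 to 11 in SCC15, while none passed adjustment in any of these settings. The median member changed by -0.02 in SCC25 and 0.00 in SCC15. In 23 members (11.9%, against 7.31% of all genes) the 3 -YBX1 libraries of SCC25 lay apart from the 3 +YBX1 libraries, and in 17 (8.81%, against 7.04% of all genes) those of SCC15 did. SCC25 -YBX1 library 2 and SCC15 -YBX1 library 1 stood furthest from their group means, each with an SD over genes of 0.36.

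SLC37A2, which was near the floor in SCC15, had the lowest p of the members there. Its SCC15 +YBX1 libraries held 10, 7 and 12 reads and the SCC15 -YBX1 libraries 3, 0 and 2. The groups did not overlap (log2 change -2.77 ± 0.57), but the adjusted p was 0.633. In SCC25 it was at 5.2, 4.63 and 4.97 with YBX1 and at 5.33, 4.37 and 5.37 after the knockdown. SLC12A7 was at 5.23, 4.87 and 4.68 in SCC15 +YBX1 and at 4.33, 4.24 and 3.97 in SCC15 -YBX1 (-0.75 ± 0.19, unadjusted p = 0.00139, adjusted p of 1). Its groups did not overlap, which the rule for naming members of a knockdown required. SLC2A12 had 0, 5 and 0 reads in SCC25 +YBX1 and 4, 25 and 5 in SCC25 -YBX1 (2.93 ± 0.90, unadjusted p = 0.00587), and these ranges met at 4 to 5 reads.

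**Figure D4:**
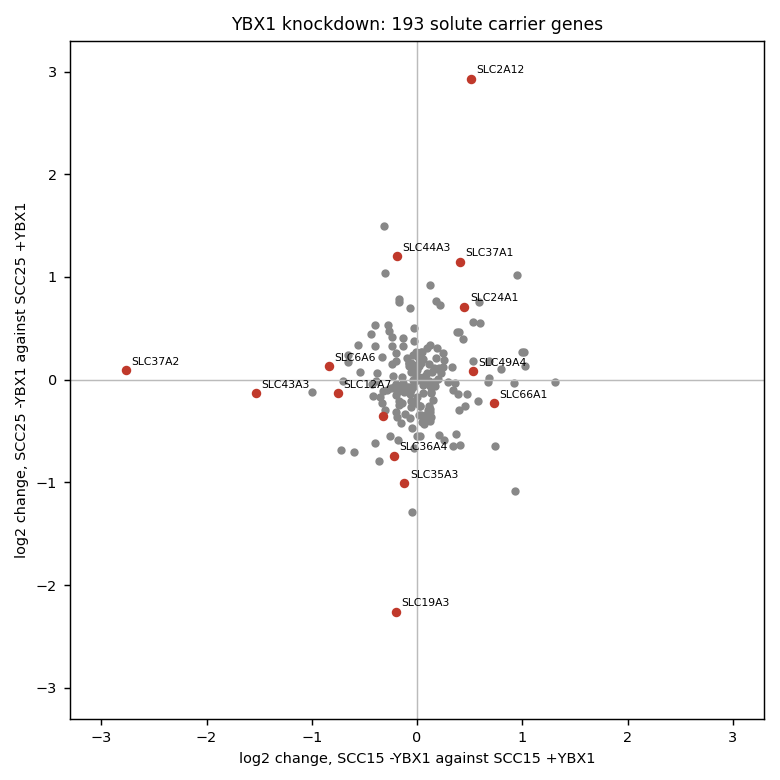
Log2 change of the 193 members after YBX1 knockdown in SCC15 (x axis) and SCC25 (y axis); red points had an unadjusted p under 0.05 in at least 1 line, with names where the change was beyond 0.5 in either line, and grey points did not. Members crowd around 0 in both lines, and SLC37A2, SLC2A12 and SLC19A3 lie beyond 2 in 1 line while having 12 reads or fewer in each +YBX1 library of that line.

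Among members whose groups did not overlap and whose level was above the median gene, those with the largest positive difference in SCC25 were SLC16A5 (0.53 ± 0.47), SLC2A8 (0.33 ± 0.21), SLC15A4 (0.24 ± 0.20) and SLC25A36 (0.19 ± 0.22). The largest negative differences were those of SLC39A4 (-0.37 ± 0.19), SLC25A17 (-0.32 ± 0.18), SLC31A2 (-0.21 ± 0.43), SLC29A1 (-0.21 ± 0.15) and SLC38A1 (-0.12 ± 0.23). SLC39A4 was at 7.03 ± 0.11 (SD, n = 3) after the knockdown and at 7.41 ± 0.04 before. In SCC15 the same rule gave SLC1A5 (0.47 ± 0.26), SLC26A6 (0.33 ± 0.29) and SLC25A28 (0.25 ± 0.29) on the higher side and SLC12A7, SLC7A6 (-0.29 ± 0.32) and SLC38A10 (-0.24 ± 0.14) on the lower. All of these had an adjusted p of 1, and none passed over all genes. Of the exchanger genes that separated the lines, SLC7A8 was at 9.34 ± 0.33 in SCC25 -YBX1 against 9.11 ± 0.23 (SD, n = 3) in SCC25 +YBX1, SLC3A2 was at 8.80 ± 0.54 against 8.79 ± 0.19, and SLC7A5 was at 6.95 ± 1.07 against 7.49 ± 0.20. SLC16A3 was at 5.42 ± 0.55 against 5.25 ± 0.23 in SCC25. A p that misses the threshold does not show that these levels were equal.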

How the data were processed

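Reads were made by 3′ tag sequencing of polyadenylated RNA. Per the labels, the submitters' processing notes name cutadapt, HISAT2, featureCounts and limma and the build hg38 (GRCh38), without versions, and the strand setting of the counting is not given in the sources used here. The deposited values are log2 CPM, made by the authors from counts with 0.5 added and with a scaling of each library. Each value of the 12995 genes gave a whole number of reads (tolerance 0.02). No gene of these was left out here, and the 6 libraries shared by both tables held the same values (to within 5e-08). The paper's methods name a filtration of expression, so an absent gene may have been read and filtered out. 

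Groups were compared with limma 3.58.1 (R 4.3.3), with a variance trend and Benjamini-Hochberg adjustment over all 12995 genes, 1 fit for the 9 libraries of the lines and 1 for the 12 of the knockdown. Errors of differences are standard errors. No label says that replicates are separate cultures, so p-values measure the spread between these samples, which may be technical. The tests were tried on simulated data first. Bounds against groups at 0 use 3 reads per library, and counting intervals (95%) cover counting error only. Same-numbered knockdown libraries deviated together (correlations 0.14 to 0.51), while those of the lines did not do so consistently (-0.21 to 0.26). The alternative with a block took same-numbered libraries as paired in the knockdowns and in the line comparisons.

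Members and lists were chosen with earlier results of these data known. Named members are, per line comparison, up to 8 higher and 8 lower that passed without overlap above the median gene, per knockdown up to 5 in each direction without overlap, the 10 with the highest mean, those at 3 reads or fewer in 1 line and above the median in another, and 36 fixed by role, of which 33 were in the tables. Exceptions are marked in the text. 1 named member is not reported here. The share of 3′ pieces found elsewhere was counted with pieces of 75 bases from the last 500 bases of each gene on GRCh38. Besides the overlaps given above, genes on the other strand overlap the 3′ ends of SLC2A12, SLC4A2, SLC7A6, SLC26A2, SLC26A6, SLC29A4 and SLC31A2. Since the strand setting of the counting is not given, the part of such genes in these counts is unknown. Alternatives were another scaling, pseudocount, filter, threshold, weights, the replicate block and leaving out each library.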

Additional observations from a re-analysis of the deposited data

How the results depend on the processing

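No named member changed direction under any alternative tried in a line comparison that it had passed. Comparisons that a named member had not passed were not checked for this. Of 114 passing pairs of a named member and a line comparison (56 members), 87 passed without any single library and 27 (21 members) did not. Without 1 library at a time, 86 to 113 members passed in SCC15 against OKF6 (45 to 58 higher, 41 to 55 lower), 69 to 112 in SCC15 against SCC25 (27 to 50 higher, 40 to 62 lower) and 51 to 88 in SCC25 against OKF6 (33 to 53 higher, 15 to 35 lower). Each highest value came without OKF6 library 1, and the 15 came without SCC25 library 3. In SCC15 against SCC25, members higher were 62 when only these groups were fitted (the cause was not tested) and 21 when genes below the first quartile of level were left out. At an adjusted p under 0.01 members passing there were 61, of which 22 were higher, and in SCC25 against OKF6 they were 42, of which 12 were lower. In SCC15 against OKF6, 28 were higher among genes above the first quartile. A stricter threshold lowers counts by construction. Leaving out the genes of low level removed mostly members called higher, which with all genes were 40 in SCC15 against SCC25 and 53 in SCC15 against OKF6. The members lower were 45 above the first quartile and 52 with all genes in SCC15 against SCC25. In SCC15 against OKF6 they were 44 and 46. The cause was not tested. Equal library medians gave 51.1% of calls higher in SCC15 against SCC25 and quantile normalization 52.5%. 

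With the replicate number as a block, 87 members passed in SCC15 against SCC25, 102 in SCC15 against OKF6 and 67 in SCC25 against OKF6, and 0 in each knockdown and in the difference between knockdowns. In the knockdowns 0 members passed under every alternative, with 3 to 9 at an unadjusted p under 0.05 in SCC25 and 4 to 7 in SCC15 when all libraries were kept. Depth limits members near the floor of 3 reads.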
